A study of Mus musculus with 12 samples.

Results

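The 4 libraries of mouse embryos collected 1 h after X-rays were set against the other 8 libraries of the series, 4 collected at 3 h and 4 left untreated. They were chosen by the time in their labels, so 4 of 12 libraries are described here, and no measured value entered the choice. All embryos were of embryonic day 9.5, and those of 1 h and 3 h were irradiated inside the pregnant mouse with 30 Gy at 5 Gy/min. Embryos of genotype p53 +/+ and p53 -/- (below, labelled wild type and labelled knockout) gave 2 libraries each at each time, numbered 1 and 2. Neither the strain nor how the p53 gene was inactivated is given in the sources used here, nor whether a library came from 1 embryo or several. Each library held either Xist, a transcript of female cells, or Y-linked transcripts, and in 4 of 6 groups the 2 libraries differed in this, so they came from different embryos. In the other 2 groups nothing says so, and the spread there may be technical. Polyadenylated RNA was sequenced, and the deposited unit is TPM, transcripts per total of 1000000 in each library. The depth is unknown, and the number of libraries limits the precision.

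A mouse embryo at this stage lays down its body axis from head to tail. Cells at the tail end switch on the Hox genes of the 4 clusters one after another, from the low to the high paralog groups, so the level of the high groups rises as the trunk and tail extend. At the same time the first neurons leave the cell cycle in the neural tube and ganglia, the heart tube loops, and vessels spread. Ionizing radiation breaks DNA, and p53 then switches on target genes such as Cdkn1a and Mdm2 within hours, while immediate early genes such as Fos and Egr1 can respond within minutes.

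Some properties of the libraries bear on every result. Trp53, which encodes p53, stood at 114, 66.8, 250.1 and 209.5 TPM in the 1 h libraries, given here and below in the order wild type 1, wild type 2, knockout 1, knockout 2. At 3 h it stood at 93.7, 68.03, 242 and 219.8 TPM and without treatment at 114, 211, 265 and 79.1 TPM in the same order. The libraries labelled knockout held more of it in 5 of 6 pairs of equal time and number, so the transcript goes against the labels, and every genotype below is only as labelled. A pair of libraries was unlike the other 10, namely the 1 h libraries that carry the number 2. Their values on the first principal component were 66.4 and 67.9, against -46.1 to 11.8. Cytosolic ribosomal protein genes took 19.95% and 20.1% of their TPM, against 12.25% to 14.53%. The 300 ribosomal protein pseudogenes in the file summed to 1732 and 1865 TPM there, against 16710 to 21970 TPM. Of the 1 h libraries 1 held Xist and 3 Y-linked transcripts, against 5 and 3 of the others; the part of sex in the results was not tested. Results are given within the libraries numbered 1 as well, where each label adds 1 library of each time. The embryo label fits the markers: lists of neurons, cardiac muscle, endothelium and primitive erythroid cells were all detected. The 5 genes listed for decidua, the maternal tissue around the embryo, summed to 1.92 to 3.30 TPM at 1 h and 1.60 to 4.08 TPM in the others, with 2 of them at 0 in every library. Much of the sum was Dio3, at 1.57 to 2.67 TPM at 1 h and 1.13 to 3.38 TPM in the others, so it is no clear measure of maternal tissue.

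At 1 h, 3 of 12 genes of Hox groups 6 to 9 and 8 of 29 neuron genes were higher than in the other embryos, among them Hoxc9, Hoxa9, Nefm and Stmn2. Among the genes that were lower were Fst and Sp5, the FGF inhibitor Dusp6, the heart channel Ryr2, the arterial ephrin Efnb2 and fibronectin. Over 15535 genes tested on log2(TPM + 1), with label and library number as factors, limma called 234 genes (1.51% of those tested) at a Benjamini-Hochberg adjusted p under 0.05. Of these, 71 were higher (0.457%) and 163 were lower (1.05%). The balance depended on scaling, with 187 higher and 189 lower after size factors and 184 higher and 157 lower after quantile normalization. The median difference of the called genes was 0.86 for those higher and -0.65 for those lower, against -0.03 over all genes. At an unadjusted p under 0.05, 1593 genes were higher and 2153 lower.

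Standing apart was also counted without a test. In each of the 4 sets of equal label and number, the 1 h library was compared with its 3 h and its untreated library. In all 4 sets, 669 genes (4.31%) lay above both and 1158 genes (7.45%) lay below both. With size factors these were 1086 and 955 genes and with quantile normalization 1143 and 811, so here too the balance turned. Among the called genes 66 of 71 lay above both and 161 of 163 below both in all 4 sets. The 4 libraries of 1 h overlapped none of the 8 others at 36 genes called higher and 106 called lower, against 136 (0.875%) and 288 (1.85%) of all genes.

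**Figure D1:**
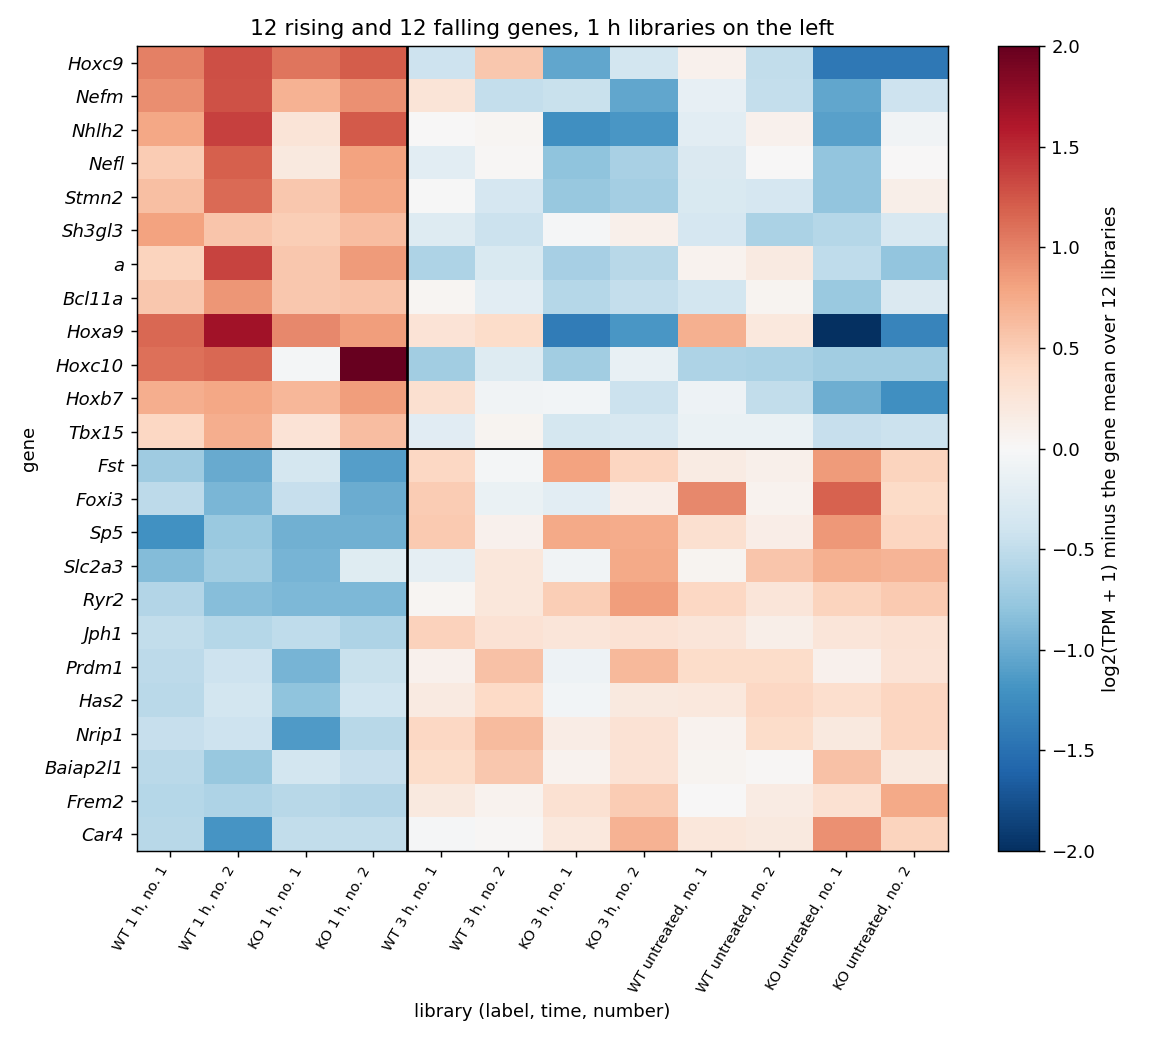
Row-centred log2(TPM + 1) of the 12 rising and 12 falling genes with the largest smallest difference over the 4 matched sets; columns are the 12 libraries (WT and KO, labelled wild type and knockout) and colour is the distance from the gene's mean over them. Only called genes without overlap could be chosen. The 4 columns of 1 h, left of the line, are therefore all above the 8 others for the 12 genes on top. They are all below them for the 12 genes underneath. Hoxc10 and Tbx15 reached the minimum of the test through 1 h libraries alone.

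The number of calls depended on which of the other libraries were set against those of 1 h. With time as 3 levels, limma called 68 genes between 1 h and untreated libraries (0.438%), 21 of them higher (0.135%) and 47 lower (0.303%), and 1489 between 1 h and 3 h libraries (9.58%), 756 higher (4.87%) and 733 lower (4.72%). Between 3 h and untreated libraries it called 236 (1.52%). All 234 called genes were called against 3 h, 54 of them also against untreated libraries, and 0 were called between 3 h and untreated libraries. That last count is not evidence of like values there, since the choice of genes by a contrast with both groups together disfavours genes that differ between them. These comparisons share libraries, so the counts are not independent of one another. Fits that left out 1 of the other times gave the reverse order. They called 128 genes with only untreated libraries as the others and 9 with only 3 h libraries. The counts therefore do not show which of the 8 libraries carried the contrast. The median difference of genes called higher was 0.77 against untreated and 0.88 against 3 h libraries, and that of genes called lower -0.63 and -0.64. A passing response that is over by 3 h and a later embryonic stage of the 1 h embryos cannot be told apart in this design, since no label gives a somite count or litter.

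The calls rest on few libraries. The count fell to 1 without the 1 h library labelled knockout numbered 2, to 2 without that labelled wild type numbered 2, and to 20 without that labelled knockout numbered 1. It rose to 1472 without the 1 h library labelled wild type numbered 1. Of the 60 called genes that were chosen by rule and are named in part below, 1, 2, 13 and 60 were called in these 4 fits. Without 1 library of the other times it lay between 64 and 305. Without both 1 h libraries numbered 2, an alternative chosen after seeing that they stand apart, 4 genes (0.0257%) were called: Fst and Sp5, both lower, and the predicted genes Gm23202 and Gm21297, both higher. Within the libraries numbered 1 alone limma called 0 genes, with 591 at an unadjusted p under 0.05, and within those numbered 2 it called 1331 (8.57%). All 234 called genes had the same sign in the libraries numbered 1, and 173 of them had an unadjusted p under 0.05 there. These libraries entered the fit that made the calls, so this is a description and no independent check. Their median difference was 0.65 in number 1 and 0.98 in number 2 for genes called higher, and -0.57 and -0.72 for genes called lower. The difference itself differed between numbers for 570 genes (3.67%), 4 of them among the 234.

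**Figure D2:**
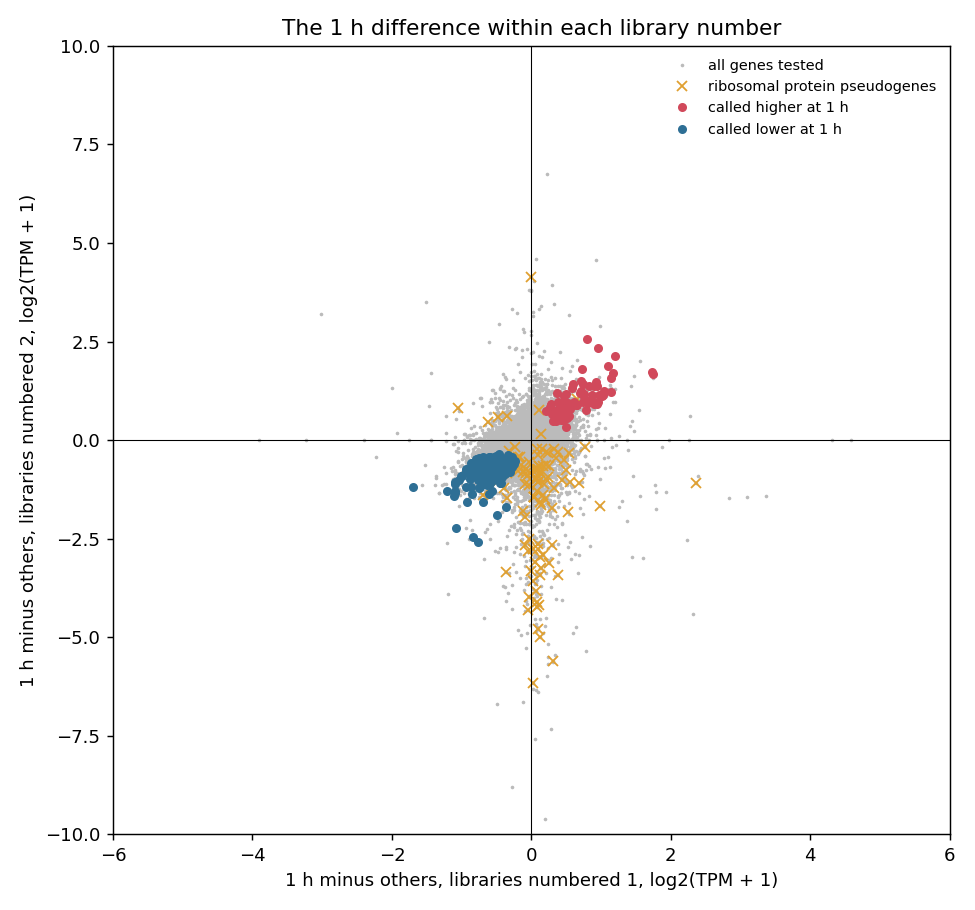
Difference between 1 h and the other libraries on log2(TPM + 1), within the libraries numbered 1 (x axis) and numbered 2 (y axis), for each of the 15535 genes tested. Genes called higher (red) and lower (blue) lie in the quadrants of equal sign, whereas ribosomal protein pseudogenes (crosses) extend downwards along the y axis near 0 on the x axis.

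Hox genes encode homeodomain factors that give body segments their identity along the axis. Hoxc9, a gene of the lower trunk, measured 4.61, 5.83, 4.87 and 5.46 TPM at 1 h, against 0.04 to 3.06 TPM (median 1.04) in the other 8 libraries, with no overlap (log2 difference 1.71, SE 0.274, limma adjusted p = 0.0200). In whole embryos, for this gene as for those below, a change in the number of cells of a type and a change in RNA per cell cannot be told apart. Hoxa9, its counterpart in the Hoxa cluster, stood at 10.4, 15.4, 8.91 and 8.16 TPM against 0.03 to 7.41 TPM (median 3.09) (1.74, SE 0.293, adjusted p = 0.0247). The other libraries labelled wild type held 5.20 and 5.59 TPM at 3 h and 7.41 and 4.90 TPM untreated, so most of the distance came from the libraries labelled knockout, which held 0.94 and 1.28 TPM at 3 h and 0.03 and 1.04 TPM untreated. Hoxb7, a trunk gene of the Hoxb cluster, was nearly level over the 1 h libraries at 10.98, 11.4, 10.5 and 11.9 TPM, above 2.08 to 8.03 TPM (median 5.06) in the others (adjusted p = 0.0376).

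Of the 12 genes of Hox groups 6 to 9, all tested, 3 rose and none fell. Over all genes tested 0.457% rose and 1.05% fell, which is the background of this count and of each count of called list members below. For counts of sign, 7209 of the 15535 genes tested had positive and 8326 negative differences. For counts over the 4 matched sets, 4.31% of all genes lay above both matched libraries and 7.45% below both. The median difference of the 12 Hox genes was 1.11, and 10 of the 12 lay above both matched libraries in all 4 sets. It was 1.01 in the libraries numbered 1 and 1.21 in those numbered 2, so both numbers gave a like value. Those that did not pass included Hoxb8 (1.09, adjusted p = 0.0557), Hoxb9 (1.25, 0.0528), Hoxc8 (1.40, 0.101) and Hoxd9 (1.23, 0.0587). With size factors 5 members passed, with quantile normalization 6, after rescaling without ribosomal protein and mitochondrial transcripts 2, and without both 1 h libraries numbered 2 none, with medians from 1.01 to 1.18.

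Groups 10 to 13 pattern the lumbar region, the tail and the limbs. Only 6 of 12 such genes reached a TPM of 1 in 2 libraries. Hoxc10 and Hoxa11 did so through 1 h libraries alone, and Hoxa10 with 1 library of the others, so these genes had to differ in order to be tested. The calls of Hoxa10, Hoxa11, Hoxc10 and Hoxd10 as higher are therefore given as a description. Hoxc10 stood at 2.47, 2.58, 0.57 and 6.66 TPM, against 0 to 0.47 TPM (median 0.02) in the others. Hoxa10 stood at 2.19, 3.89, 0.99 and 5.47 TPM against 0 to 1.13 TPM (median 0.34), and Hoxa11 at 0.72, 2.82, 0.97 and 3.66 TPM against 0 to 0.49 TPM (median 0.11). Under each label the 1 h library numbered 2 held more of each of these genes than that numbered 1. Hoxa10 and Hoxd10 each overlapped the others with 1 library of 1 h, that labelled knockout numbered 1. Hoxc13 went the other way without passing, at 0.0275 TPM on average at 1 h and 0.32 TPM in the others.

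Of the anterior groups 1 to 5 none of 15 genes was called, and their median difference was 0.27. Of the 15 differences 11 were positive and 4 negative, the latter with Hoxb1, Hoxa3 and Hoxb2 at -0.24, -0.15 and -0.06. Hoxc4, at the boundary to the next groups, stood at 15.8, 17.8, 12.8 and 14.4 TPM against 3.63 to 14.04 TPM (median 9.14) without passing (0.81, adjusted p = 0.0729). Over all libraries the gene of group 9 had the largest difference of its cluster on the log2(TPM + 1) scale, which compresses low genes. In the libraries numbered 2 alone another gene exceeded it in each cluster: Hoxa10, Hoxb7, Hoxc10 and Hoxd10.

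**Figure D3:**
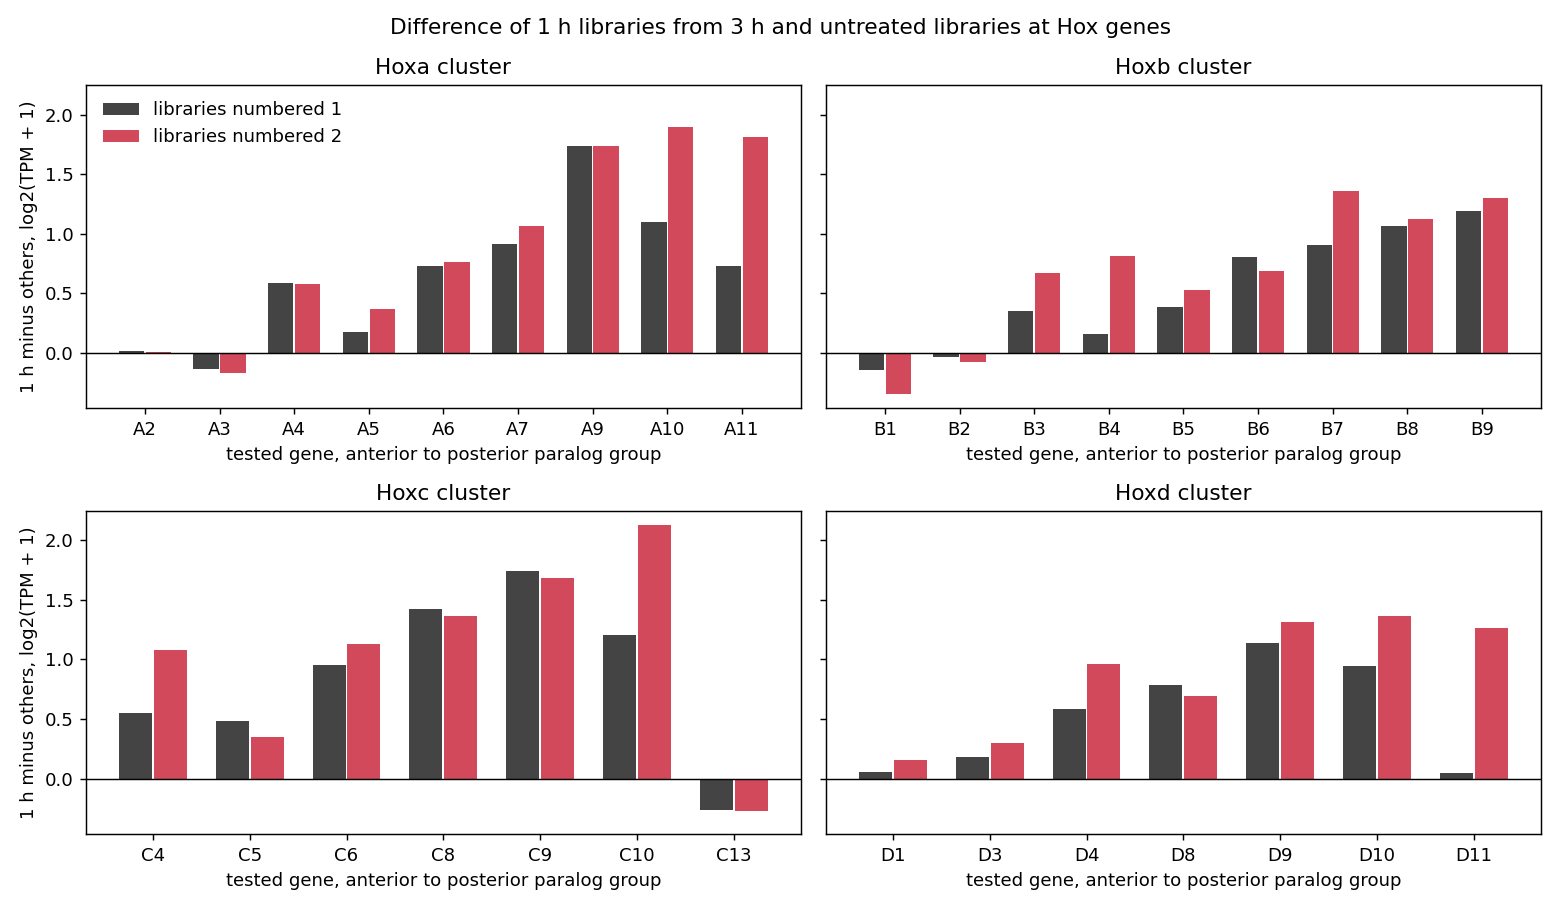
Difference between 1 h and the other libraries on log2(TPM + 1) for the tested Hox genes shown, in order of paralog group within each cluster, in libraries numbered 1 (dark) and numbered 2 (red). All 12 genes of groups 6 to 9 are above 0 in both numbers, whereas Hoxb1, Hoxa3, Hoxb2 and Hoxc13 are below 0.

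Per label, the median difference of groups 6 to 9 was 0.57 under the label wild type and 1.66 under the label knockout. No gene passed the test of the difference between labels, where 228 genes had an unadjusted p under 0.05. Its smallest p over all genes was that of Hoxb9, with a difference between labels of 1.70 (limma adjusted p = 0.453). The mean log2(TPM + 1) over these 12 genes was 3.55 to 3.79 in the 1 h libraries and 1.45 to 3.27 in the 8 others, so the 1 h libraries were alike and the others ranged widely. Against untreated libraries the median was 1.36 and against 3 h libraries 0.89. Transcripts of overlapping antisense genes cannot be told apart here without the strand setting. Of 7 tested antisense and long noncoding Hox RNAs 0 passed, and Hoxb5os stood at 15.2, 24.9, 17.04 and 31.8 TPM against 4.01 to 16.7 TPM (median 8.50).

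Genes that change with developmental time outside the Hox clusters were listed separately. The heterochronic genes, among them Lin28a and its partners that fall as embryos age, had 1 call lower and 0 higher of 11 tested, and 10 of 11 differences were negative (median -0.28). Prtg, protogenin, a receptor of the early neural tube and tailbud, fell, with 62.3, 41.3, 43.8 and 45.5 TPM at 1 h against 60.04 to 144 TPM (median 104) (-1.10, SE 0.228, adjusted p = 0.0437). Its 3 h values of 87.5, 101, 60.04 and 84.8 TPM lay between the 1 h and the untreated ones of 106, 131, 144 and 142 TPM, and the 1 h value labelled wild type numbered 1 overlapped a 3 h one. Trim71, a Lin28 partner, did not pass (-1.02, adjusted p = 0.0572).

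Among neuron genes, Nefm and Nefl, which encode the medium and light subunits of neurofilaments, had the smallest p of all rising genes. Nefm stood at 33.1, 42.1, 28.02 and 32.6 TPM at 1 h and 7.71 to 20.3 TPM (median 12.00) in the others (1.43, SE 0.179, limma adjusted p = 0.00867). Nefl stood at 13.3, 22.01, 10.5 and 16.6 TPM against 4.74 to 9.23 TPM (median 7.46) (1.01, SE 0.125, adjusted p = 0.00867). Stmn2, a tubulin-binding protein of growth cones, stood at 16.9, 24.8, 16.2 and 19.3 TPM against 5.86 to 11.9 TPM (median 8.40). None of the 3 overlapped between 1 h and the other libraries, and the 1 h library numbered 2 was the higher one under each label.

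Of 29 neuron genes, all tested, 8 rose (against 0.457% of all genes) and none fell: Nefm, Nefl, Stmn2, Nhlh2, Tubb3, Stmn3, Ina and Dcx. Tubb3, a tubulin of neurons, averaged 98.3 ± 14.8 TPM (SD, n = 4) at 1 h and 47.8 ± 14.9 TPM (SD, n = 8) in the others, and Dcx, a microtubule protein of migrating neurons, averaged 4.19 and 1.93 TPM. The median over the list was 0.51, and 26 differences were positive, and 14 members lay above both matched libraries in all 4 sets. It was 0.64 in the libraries numbered 1 and 0.49 in those numbered 2. The members that rose are mostly cytoskeletal genes that many neurons share. Factors of single neuron classes did not pass, such as Isl1 (0.25) of motor neurons and Lhx1 (-0.08) of interneurons. With size factors or quantile normalization 10 members passed, and without both 1 h libraries numbered 2 none did.

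Nhlh2, a basic helix-loop-helix factor of newborn neurons, stood at 6.01, 9.63, 3.91 and 8.64 TPM at 1 h and 0.76 to 3.38 TPM (median 2.73) in the others (1.36, SE 0.209, adjusted p = 0.0192). Factors of this class bind the E-box, so its start region is shown with the E-box letters CAGCTG and CAGATG in capitals, read on both strands (CAGCTG reads the same on both; RefSeq, GRCm38.p6, chr3:102009895-102010194, + strand).
Nhlh2 promoter: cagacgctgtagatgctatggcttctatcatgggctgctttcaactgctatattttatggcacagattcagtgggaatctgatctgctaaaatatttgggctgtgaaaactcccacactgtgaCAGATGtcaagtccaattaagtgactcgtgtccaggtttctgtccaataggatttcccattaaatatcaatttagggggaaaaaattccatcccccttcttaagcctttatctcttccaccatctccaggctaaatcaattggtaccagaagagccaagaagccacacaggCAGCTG
Among promoters of genes called higher, CAGCTG was found in 15 of 70 (21.4%, against 16.3% of all RefSeq promoters) and CAGATG in 10 of 70 (14.3%, against 17.2%). A match describes letters only.

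Of 13 neural progenitor genes 1 rose and the median difference was 0.02. The one that rose was Fabp7, a fatty acid binding protein of radial glia, at 34.6, 60.4, 25.7 and 54.7 TPM against 8.24 to 32.5 TPM (median 19.4) (1.19, SE 0.214, adjusted p = 0.0285). The lowest 1 h value lay below 3 of the others, the highest of them untreated and labelled knockout. None of 13 tested proneural factors was called. Their median was -0.39 against untreated and 0.56 against 3 h libraries.

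Other genes with the most separate 1 h values were of varied kinds. Sh3gl3, an endophilin of synapses, stood at 7.45, 6.16, 5.79 and 6.41 TPM against 2.13 to 4.19 TPM (median 2.87). Bcl11a, a zinc finger factor of neurons and blood, stood at 1.99, 2.80, 2.00 and 2.06 TPM against 0.23 to 1.13 TPM (median 0.65). The gene a (nonagouti), a signal that sets coat colour, stood at 1.95, 4.52, 2.16 and 2.91 TPM against 0.26 to 1.46 TPM (median 0.50), and Tbx15, a T-box factor of the skin and skeleton, at 1.20, 1.73, 0.99 and 1.54 TPM against 0.20 to 0.72 TPM (median 0.36). Tbx15 reached the minimum of the test through 1 h libraries alone, so its call is a description. All 4 were called (adjusted p of 0.0174 to 0.0228), and all are low in a whole embryo. Epha3, an axon guidance receptor, rose too, from 2.57 TPM on average in the others to 5.58 TPM at 1 h.

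**Figure D4:**
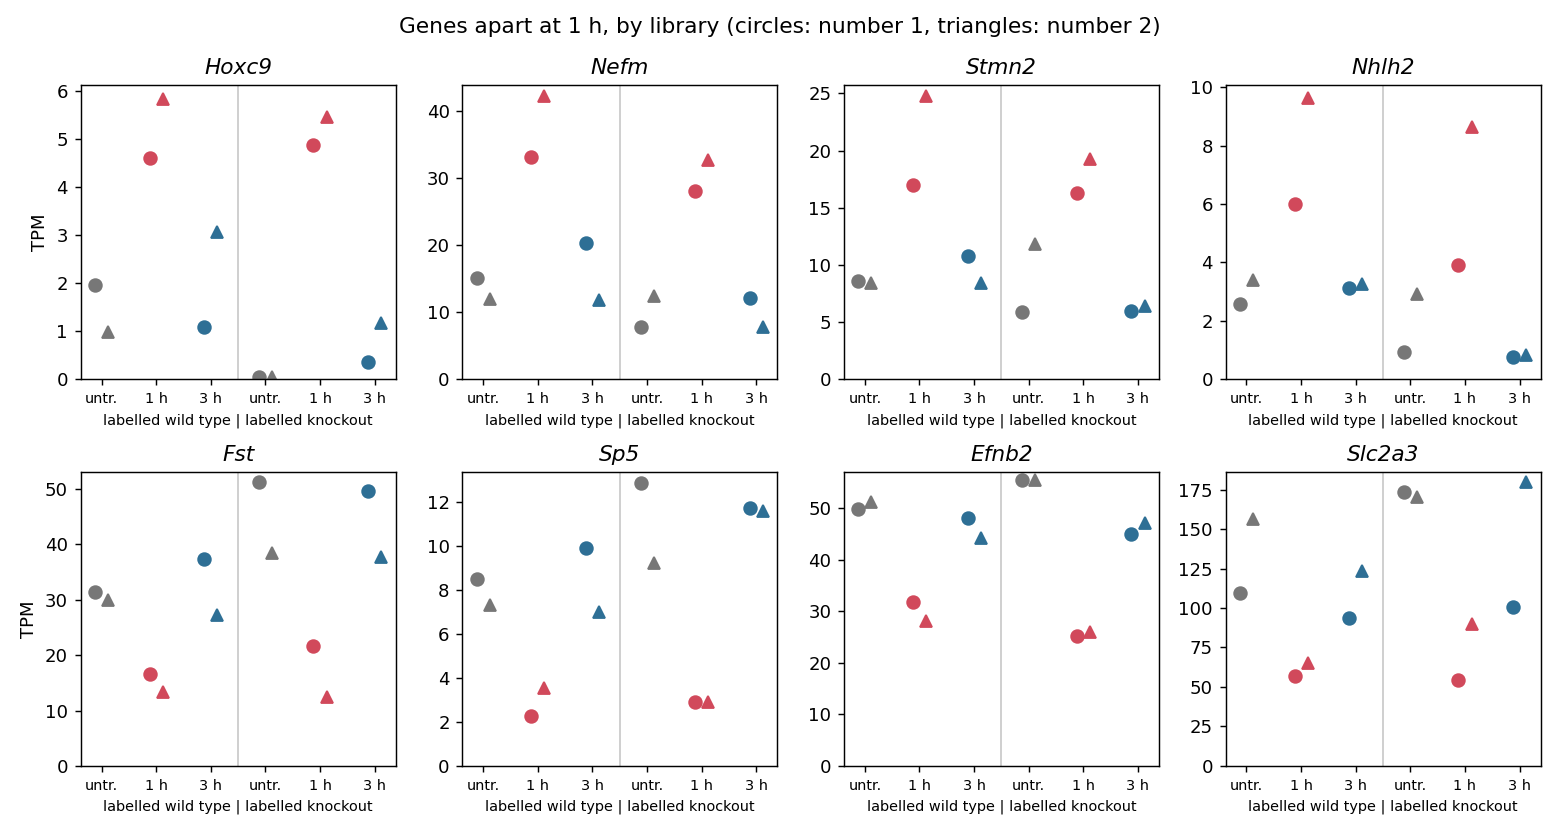
TPM in each library for 4 rising (top) and 4 falling genes (bottom), by label and time; circles are libraries numbered 1 and triangles those numbered 2, and every axis starts at 0. The genes were taken from those without overlap, so in each panel the 4 points of 1 h (red) lie apart from the 8 others. For Fst they lie at 12.5 to 21.6 TPM under 27.2 to 51.2 TPM.

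The smallest p of all genes was that of Fst, which encodes follistatin, an extracellular inhibitor of activin. Its levels were 16.6, 13.3, 21.6 and 12.5 TPM at 1 h, 37.4, 27.2, 49.6 and 37.7 TPM at 3 h and 31.5, 30.01, 51.2 and 38.3 TPM untreated. The highest 1 h value was below the lowest of the 8 others (-1.19, SE 0.103, limma adjusted p = 0.00255). Within the libraries numbered 1 the difference of Fst was -1.10 and within those numbered 2 -1.29. Of the 60 called genes that were examined one by one, Fst alone kept its call without each of the 12 libraries in turn. Other called genes kept theirs in far fewer of the 12 fits, such as Hoxb7 in 3, Prtg and Foxi3 in 2 and Hes1 in 1.

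Sp5, a zinc finger factor that is a direct target of Wnt signalling in the tailbud, fell as well, with 2.27, 3.54, 2.89 and 2.89 TPM at 1 h, 9.91, 7.00, 11.7 and 11.6 TPM at 3 h and 8.48, 7.33, 12.8 and 9.24 TPM untreated (-1.45, SE 0.143, adjusted p = 0.00477). Of the 12 fits that leave out a single library, 1 lost its call, that without the 1 h library labelled knockout numbered 2. Within the libraries numbered 1 its difference was -1.70 and within those numbered 2 -1.20. Its start region is shown because TCF/LEF factors, the effectors of Wnt signalling, bind the letters CTTTGA, given in capitals and read on both strands (RefSeq, GRCm38.p6, chr2:70474673-70474972, + strand).
Sp5 promoter: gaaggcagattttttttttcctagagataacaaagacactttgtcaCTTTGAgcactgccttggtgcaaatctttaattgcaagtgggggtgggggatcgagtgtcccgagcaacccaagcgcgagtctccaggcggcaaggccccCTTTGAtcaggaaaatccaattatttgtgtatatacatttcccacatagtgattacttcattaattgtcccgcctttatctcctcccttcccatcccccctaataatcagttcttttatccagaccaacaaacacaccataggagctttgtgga
The 300 bases hold 2 matches. Among promoters of genes called lower 17 of 148 (11.5%) held a match, against 16% of all RefSeq promoters, so the letters were not more frequent there.

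Genes of Wnt, FGF, Notch and ephrin signalling had single members that fell. Of 25 Wnt genes 2 fell and none rose (median -0.19, 22 of 25 negative): Sp5 and Fzd5, a Wnt receptor, at 2.81, 2.43, 1.99 and 1.86 TPM against 3.68 to 5.05 TPM (median 3.90). Axin2, the usual feedback target of Wnt signalling, did not pass (-0.37, adjusted p = 0.0901). Of 18 FGF genes 2 fell and none rose (median -0.18), both inhibitors that FGF signalling itself induces. Dusp6, a phosphatase of ERK, stood at 24.9, 37.00, 18.9 and 26.6 TPM against 35.02 to 95.2 TPM (median 62.02) (-1.10, SE 0.185, adjusted p = 0.0246). Spry1, Sprouty1, stood at 7.59, 12.3, 6.59 and 11.7 TPM against 12.3 to 18.9 TPM (median 14.2) (-0.63, adjusted p = 0.0192). For both, 1 library of 1 h overlapped the others, though in each matched set the 1 h value was the lowest. Spry2, Spry4 and Spred2 were also below both matched libraries in all 4 sets without passing.

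Of 14 Notch genes 2 fell and none rose (median -0.10). Jag1, a Notch ligand, averaged 10.3 TPM at 1 h and 17.01 TPM in the others, and Hes1, a repressor that Notch induces, 25.9 and 37.2 TPM (adjusted p = 0.0247 and 0.0464). Of 17 ephrin and Eph genes 1 fell and 1 rose. The ephrin that fell, Efnb2, marks arteries and the posterior part of each somite. Its levels were 31.9, 28.1, 25.1 and 26.03 TPM at 1 h, 48.2, 44.2, 45.04 and 47.2 TPM at 3 h and 49.9, 51.2, 55.6 and 55.6 TPM untreated (-0.82, SE 0.0959, adjusted p = 0.00867), with little spread at any time.

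Single heart and vessel genes fell too. Of 20 cardiac muscle genes 3 fell (against 1.05% of all genes) and none rose, with a median of -0.40 and 18 of 20 negative. Ryr2, the calcium release channel of heart muscle, stood at 2.39, 1.82, 1.71 and 1.72 TPM at 1 h and 4.20 to 8.10 TPM (median 5.83) in the others (-1.21, SE 0.143, limma adjusted p = 0.00867). The other called members, the heart factors Tbx20 and Gata4, fell by 1.25 and 0.65 on the log2 scale. Jph1, a junctophilin that couples membranes in muscle, is not on this list. It was as even as Ryr2, at 1.87, 1.71, 1.83 and 1.62 TPM against 3.35 to 4.54 TPM (median 3.84) (limma adjusted p = 0.00867). Sarcomere genes did not pass: Actc1 averaged 364 TPM against 615 TPM and Myh7 134 TPM against 221 TPM (adjusted p = 0.0755 and 0.0764). Of 12 endothelial genes 2 fell and none rose (median -0.28). They were the VEGF receptors Kdr, at 23.02, 25.6, 20.9 and 23.2 TPM against 28.9 to 34.03 TPM (median 32.1), and Flt1, at 7.15, 6.82, 6.26 and 6.86 TPM against 8.74 to 17.1 TPM (median 11.6). In the libraries numbered 1 the medians of the cardiac and endothelial lists were -0.43 and -0.38, and in those numbered 2 -0.36 and -0.09. Under the label wild type these medians were -0.12 and -0.14, and under the label knockout -0.70 and -0.42.

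Of 17 basement membrane and fibrillar matrix genes 3 fell and none rose (median -0.44): Fbn2, a fibrillin, Fn1, fibronectin, and Col4a1, a basement membrane collagen. Fn1 stood at 89.5, 84.9, 116 and 77.3 TPM against 115 to 198 TPM (median 144), with the 1 h library labelled knockout numbered 1 just above the lowest of the others, and Fbn2 at 21.2, 25.9, 22.6 and 21.6 TPM against 29.1 to 50.4 TPM (median 39.6). Has2, the enzyme that makes hyaluronan, averaged 8.79 TPM at 1 h and 15.9 TPM in the others (adjusted p = 0.00867), and Frem2, a protein of the skin basement membrane, stood at 9.24, 8.96, 9.35 and 9.15 TPM against 14.4 to 24.8 TPM (median 17.1). Ccn2, a target of YAP and of serum response signalling, fell from 22.1 TPM to 11.03 TPM. Chosen after their values were seen, Vcl and Tln1, which link integrins to actin, averaged 27.9 and 35.1 TPM at 1 h and 49.05 and 53.8 TPM in the others, and both fell. Chosen in the same way, Myh9, a nonmuscle myosin, fell from 109.3 to 64.13 TPM, and Actn4, an actinin, from 230.1 to 170.2 TPM. Genes picked like this do not stand for a group.

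The remaining genes with the most separate low values have varied roles. Slc2a3, a glucose transporter, stood at 57.2, 64.9, 54.7 and 89.6 TPM against 93.6 to 180.0 TPM (median 139.9) (-1.03, SE 0.138, adjusted p = 0.0151). It was the one call among 18 hypoxia-inducible genes (median -0.22), and Slc2a1 did not pass. Prdm1, a repressor in germ cells and mesoderm, stood at 1.91, 2.13, 1.20 and 2.08 TPM against 2.90 to 5.53 TPM (median 4.21). Nrip1, a cofactor of nuclear receptors, stood at 16.6, 17.03, 10.1 and 15.5 TPM against 24.3 to 36.5 TPM (median 29.3). Foxi3, a forkhead factor of the pharyngeal ectoderm, stood at 1.23, 0.69, 1.33 and 0.61 TPM against 1.76 to 6.26 TPM (median 2.85) (adjusted p = 0.0464), with its 2 highest values in untreated embryos. Baiap2l1, an actin-binding adaptor, and Car4, a carbonic anhydrase, averaged 6.14 and 24.5 TPM at 1 h and 11.5 and 51.02 TPM in the others.

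Neural crest genes had 2 calls lower of 15, Ets1 and Erbb3. Erbb3, a neuregulin receptor of the Schwann cell lineage, stood at 6.51, 5.76, 5.23 and 5.64 TPM against 7.70 to 11.2 TPM (median 9.02). Of 18 chromatin remodellers and histone methyltransferases all had negative differences (median -0.26) and 2 fell, Arid1a and Arid1b, subunits of the BAF complex. Of 19 genes of double-strand break signalling and repair 1 fell, Brca1, at 27.3, 24.6, 14.9 and 22.9 TPM against 28.3 to 57.5 TPM (median 35.4).

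Many of the falling genes are long. The median longest transcript was 6587 bases for genes called lower, 2147 for genes called higher and 3072 over all genes tested (lengths from an annotation of an earlier build). The 3099 genes with the longest transcripts, from 5011 bases, held 103 of the lower calls and 5 of the higher ones. The median difference of those 3099 genes was -0.18 in the libraries numbered 1 and -0.15 in those numbered 2. The part of transcript length in these calls was not tested.

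No p53 target on the lists was called at 1 h against all others. Of the p53 targets of arrest and feedback, of cell death, and of repair and metabolism, 0 of 19, 0 of 13 and 0 of 14 were called, with medians of -0.02, -0.32 and -0.20. The first median turned positive with quantile normalization (0.01) and without ribosomal protein and mitochondrial transcripts (0.02). Against untreated libraries alone the medians of these lists were 0.59, 0.32 and 0.03, in the same order. Against 3 h libraries alone they were -0.77, -1.085 and -0.40. Cdkn1a, the p21 inhibitor of cyclin-dependent kinases, stood at 6.01, 8.36, 79.3 and 76.2 TPM at 1 h and 6.96, 6.18, 499 and 444 TPM at 3 h, against 5.91, 6.60, 6.88 and 5.38 TPM untreated. Under the label knockout its 1 h value thus lay between the untreated and the 3 h value, which this comparison does not call. Ccng1 had the same order there, at 10.7, 12.6, 73.5 and 120.2 TPM at 1 h and 10.6, 14.04, 563 and 703 TPM at 3 h. Under the label wild type Cdkn1a stayed at 5.91 to 8.36 TPM at every time. This p53 target therefore goes against the labels too, as Trp53 does, and the genotypes remain only as labelled. Foxo3, a forkhead factor whose zebrafish counterpart is in the series title, stood at 8.91, 10.2, 6.55 and 10.5 TPM at 1 h, below the others at 10.97 to 53.5 TPM (median 12.9), without passing (-0.91, adjusted p = 0.193). Fbxw7, a ubiquitin ligase subunit from the same title, was not called either (-0.54, adjusted p = 0.372). It stood at 9.65 to 14.3 TPM at 1 h and 12.1 to 47.4 TPM (median 14.6) in the others. Over Trp53, Cdkn1a, Ccng1, Foxo3 and Fbxw7 the median difference was -0.04 against untreated and -1.24 against 3 h libraries.

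Of 26 immediate early genes tested 2 fell and none rose (median -0.34): Ccn2, given above, and Klf6, a zinc finger factor, at 10.2, 10.7, 6.17 and 8.62 TPM against 13.4 to 16.9 TPM (median 15.9). Their median was 0.01 against untreated libraries and -0.61 against 3 h libraries. Of 10 NF-kappaB targets, 5 interferon genes and 13 chaperones tested, 1 each rose: Nfkbia, the inhibitor of NF-kappaB, at 18.01, 27.03, 16.6 and 23.6 TPM against 11.00 to 17.97 TPM (median 14.5) (adjusted p = 0.0292), Irf9, an interferon signalling factor, and Dnajb1, a cochaperone (0.43, 0.0376). Irf9 stood at 5.42, 6.72, 5.31 and 5.81 TPM against 3.44 to 4.27 TPM (median 3.86), with no overlap (adjusted p = 0.0342). Negative differences were held by 8 of the 10 NF-kappaB targets (median -0.17), 2 of the 5 interferon genes (median 0.19) and 9 of the 13 chaperones (median -0.09). No gene of G2 and mitosis was called of 27, although 25 differences were positive. Their median was 0.64 against 3 h and -0.12 against untreated libraries.

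**Figure D5:**
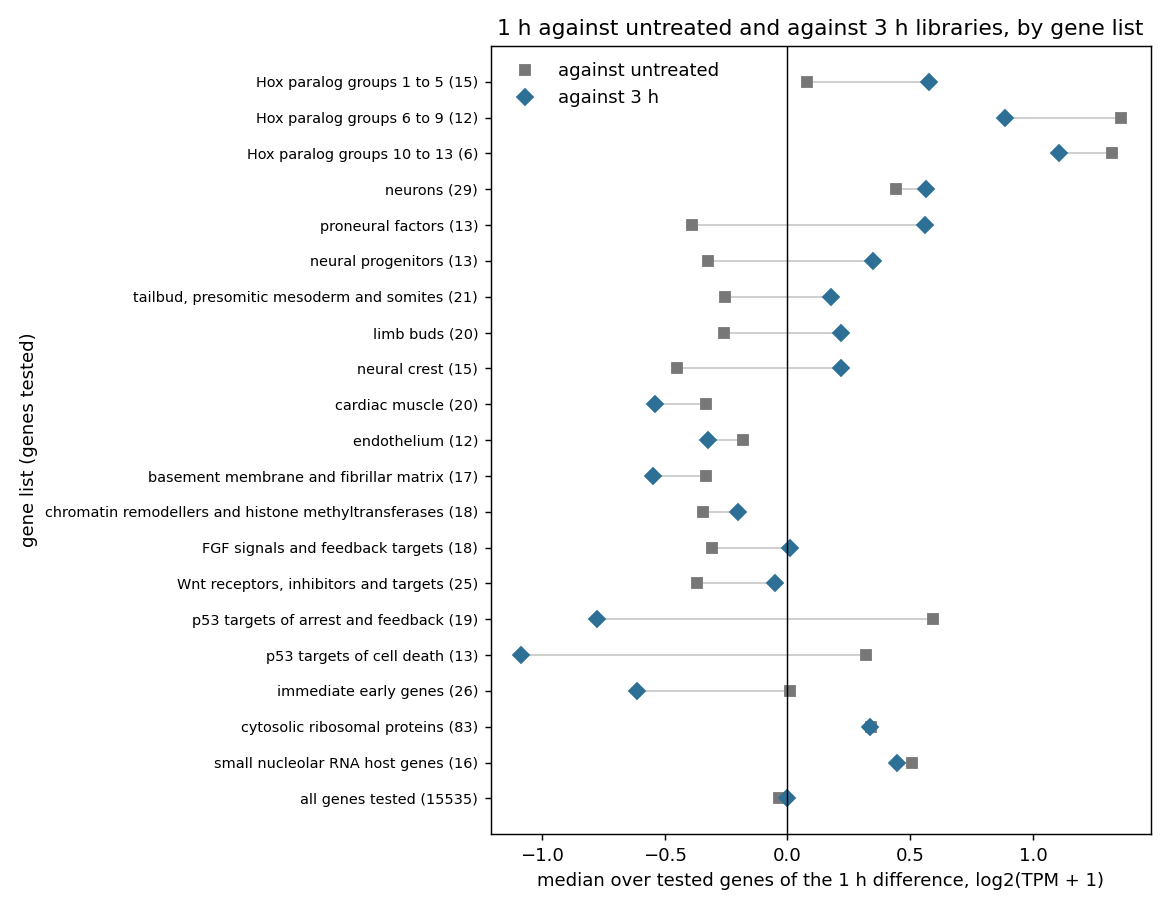
Median difference of the 1 h libraries on log2(TPM + 1) over the tested genes of 20 lists and over all genes, against untreated (squares) and against 3 h libraries (diamonds); the number of genes tested is in brackets. Hox groups 6 to 9 and neurons are above 0 against both, cardiac muscle and matrix genes below 0 against both, and p53 targets of arrest and feedback lie at 0.59 and -0.77.

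Some lists had larger medians in the libraries numbered 2. Of 83 cytosolic ribosomal protein genes 1 rose, Rpl37, and the median was 0.07 in number 1 and 0.58 in number 2. Of 79 nuclear subunits of the respiratory chain 1 rose, Uqcrh (0.07 and 0.41), and of 16 host genes of small nucleolar RNAs 2 rose, Snhg1 and Snhg6 (0.27 and 0.48). Snhg1 was higher in both numbers, at 177, 283, 161 and 237 TPM against 115 to 152 TPM (median 142), while Snhg6, at 37.7, 125, 36.8 and 109.7 TPM, overlapped the others. Hist1h2af, a replication histone gene with near-identical copies, rose with 4.01, 13.02, 3.82 and 16.3 TPM against 1.15 to 4.10 TPM (median 1.54). Its value and that of Rpl37 are uncertain, because reads may be shared among copies. The part of the composition of the libraries numbered 2 in these calls was not tested.

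Other tissues gave few calls. Of 6 tested white blood cell genes 1 rose, the complement gene C1qb, at 0.70, 1.34, 0.47 and 1.13 TPM against 0 to 0.35 TPM (median 0.085), a gene that reached the minimum through the 1 h libraries numbered 2 alone. Ptprc and Cx3cr1 did not reach the minimum. The list summed to 9.53 to 16.3 TPM at 1 h and 3.75 to 13.2 TPM in the others. None of the visceral endoderm and yolk sac genes was called (12 tested, median -0.73, 11 negative), and their sum ranged from 37.6 to 267 TPM at 1 h and from 29.3 to 516 TPM in the others. None was called among somite and tailbud, limb bud, primitive erythroid or gut endoderm genes. Of 24 forebrain, midbrain and hindbrain factors 0 were called (median -0.15), with En1, of the midbrain, at 4.37, 3.53, 4.27 and 2.64 TPM against 3.75 to 11.1 TPM (median 7.92) (adjusted p = 0.0816).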

How the data were processed

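The deposited table holds TPM per gene, made by the authors from paired reads of 75 bases of polyadenylated RNA (about 500 ng), per the labels' protocols. Per the submitters' processing notes, the tools were RSEM 1.3.3, STAR 2.7.3a, R 4.3.3, DESeq2 1.42.1 and HTSeq 0.12.3, in no stated role, on the mouse build GRCm39. The strand setting is not given in the sources used here. Such values keep no depth and share a fixed total, so a gain in abundant transcripts lowers all others. Of 53647 gene IDs, 97.1% matched a symbol in an annotation of the earlier build GRCm38.p6, which also gave lengths and promoters.

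The 15535 genes that reached 1 TPM in 2 or more libraries entered the test, made on log2(TPM + 1) with limma 3.58.1 in R 4.3.3, two-sided, with a trend of the spread, label and library number as factors, and Benjamini-Hochberg adjustment over all genes tested (called under 0.05). Fold changes on this scale understate the change of low genes. Fits with time as 3 levels and with an interaction of 1 h with label or number used all 12 libraries. Size factors were medians of ratios. The fit was also run on simulated data with independent noise. These held no pair of libraries set apart like the 1 h libraries numbered 2, so they cannot show how such a pair affects the calls. No table of counts was used. Values identical between libraries of a group made up at most 1.10% of values, so all 12 were kept as separate. The library number was made a factor by the rule of the comparison, and no label says what libraries of equal number share. In these same data, libraries of equal number deviated together from their group means in all 15 pairs of groups (r of 0.33 to 0.80).

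The genes compared and the 52 gene lists were chosen with earlier results of these data known. Genes were named by rule: the 12 rising and 12 falling called genes without overlap that had the largest smallest difference over the 4 sets, up to 4 called members of each list (2 with the smallest p where none was called), Trp53 and the title genes, and up to 6 genes each way per interaction, leaving out clone-like names. Other list members and genes with values were named after their values were seen. Figures were drawn with matplotlib 3.10.9. Values of some genes are not reported here.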

Additional observations from a re-analysis of the deposited data

Results flagged for a closer look

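For 570 genes (3.67%) the 1 h difference itself differed between library numbers by the interaction test of limma, 169 larger in number 2 and 401 smaller. Only 4 of them were among the 234 genes called at 1 h against all others. The values below are the difference in number 2 minus that in number 1 on log2(TPM + 1), with TPM in the order used above. Study groups hold 2 libraries, too few to look for a single outlying library.

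The genes whose difference was larger in number 2 were of several kinds. Hist1h2ap, a replication histone gene, stood at 16.1, 1350.0, 13.6 and 1357 TPM (6.53), and at 5.19 to 27.7 TPM in the others. Snora73a, a small nucleolar RNA, gave 3.59, Sec61g, a subunit of the protein translocation channel, 3.43, Rpl22l1, a ribosomal protein paralog, 3.25, Atp5g2, an ATP synthase subunit, 3.21, Mrpl23, a mitochondrial ribosomal protein, 2.64, and the pseudogene Rpl30-ps9 4.14. Uqcrh, a respiratory chain subunit called at 1 h, gave 0.524.

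On the lower side 35 of the 401 genes were pseudogenes of ribosomal proteins. Rps12-ps3 stood at 5107, 53.7, 4744 and 34.5 TPM (-6.19). Rpl36a-ps3 gave -5.92, Rpl23a-ps3 -5.11, Rpl37rt -4.91 and Rpl36a-ps2 -4.88. Of 105 such pseudogenes tested 1 was called higher. Bc1, a neuronal noncoding RNA, stood at 24.2, 0, 27.1 and 0 TPM (-6.21). Pabpc1, the poly(A) binding protein, gave -0.640. Reads may be split between such genes and their near copies, so these values are uncertain, and what sets the number 2 libraries apart was not tested.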

How the results depend on the processing

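Counts of called genes moved with most settings. The 234 genes at 1 h against all others became 107 with no filter on low values (29302 genes tested), 376 with size factors, 31 with no replicate block, 2642 with the block and 1 mean per group, and 5041 with array weights. They became 0 in the libraries numbered 1, in those labelled wild type and in those labelled knockout, where fewer libraries enter the fit, 1331 in those numbered 2, 128 with only untreated libraries as the others, 9 with only 3 h libraries, and 4 without both 1 h libraries numbered 2. Leaving out each library in turn gave 1 to 1472. The share called higher was 30.3%, against 49.7% with size factors and 54% with quantile normalization, 40.4% with group means and 41.8% with array weights. With no filter, 1 h against untreated gave 6 genes in place of 68, 1 h against 3 h 580 in place of 1489, 3 h against untreated 90 in place of 236, and the difference between labels 2 in place of 0. With no replicate block the first 3 of these gave 13, 108 and 30. Single libraries left out gave 0 to 773, 112 to 2780, 42 to 802 and 0 to 2 in the same order, and 333 to 573 for the difference between numbers (570). Quantile normalization moved the share higher in 1 h against 3 h from 50.8% to 64.1%, and removing the block moved that in 3 h against untreated from 23.7% to 6.67%. Genes beyond both matched libraries in all 4 sets, 1827 in all, numbered 1778 to 2041 under 3 other scalings, with 46.3% to 58.5% higher. None of the 126 genes chosen by rule changed sign when called. The cause of these shifts was not tested. With 2 libraries a group and depth unknown, low genes such as Hox groups 10 to 13 carry the least certain values.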
